A study of Mus musculus with 8 samples.

Results

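Cell adhesion and guidance molecules were followed in sorted cells of the mouse vertebral column. The genes were chosen by symbol alone, as classical cadherins and their relatives (Cdh), protocadherins (Pcdh), integrin alpha and beta genes (Itga, Itgb), claudins (Cldn), laminins (Lam), nidogens (Nid), contactins (Cntn), semaphorins (Sema), plexins (Plxn), Eph receptors (Eph) and ephrins (Efn). Of these 12 families no nidogen gene had a named probe, and 109 genes of the other families did, through 123 probes. A single row of measured intensities could be assigned to 96 of the 109 genes. The remaining 13 genes shared their values with other probes and were not analysed, and none of the probes holding those values was detected on as many as 3 arrays. Among the 96 genes, 52 were detected on at least 3 of the 8 arrays and are called kept members here, out of 4890 named genes and 21002 probes kept in all. The study collected EGFP-positive cells from vertebral columns of E12.5 embryos (C57BL/6J;129) by fluorescence-activated cell sorting and hybridized their total RNA to Illumina WG-6 arrays. Both groups carried EGFP at the Sox9 locus, Sox9 being the transcription factor that directs cartilage formation. In the 4 WT samples EGFP lay behind an intact Sox9 gene through an internal ribosomal entry site, and the series describes these embryos as heterozygous for the insertion. In the 4 HOMO samples EGFP replaced Sox9, and the cells came from chimaeric embryos, since homozygous embryos die before this stage. Sox9 itself is not analysed here, so the labels were not checked against it. The study's methods describe the 4 samples of a group as biological replicates.

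Cadherins and protocadherins hold cells together by binding the same kind of molecule on the neighbouring cell, and claudins seal tight junctions. Integrins are paired alpha and beta receptors that anchor cells to the matrix, and laminins are the trimeric proteins of basement membranes to which many integrins bind. Ephrins and semaphorins are guidance cues read by Eph receptors and plexins, respectively, and they steer axons, neural crest cells and somite borders in the vertebral column. Contactins are adhesion molecules of neurons. Condensation of mesenchyme into cartilage is known to involve N-cadherin and the neural cell adhesion molecule.

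The arrays of the groups differed in overall brightness, which limits every comparison below. After background subtraction the WT arrays averaged an intensity of 329 ± 33.1 and the HOMO arrays 7.89 ± 2.43 (SD over the 4 arrays of a group), 41.7 times less, and the detected share of probes was 44.8% ± 0.852 and 18.3% ± 2.22. Brightness, the chimaeric origin of the HOMO cells and genotype cannot be told apart by design. In sorted bulk RNA, fewer cells of a type and less RNA per cell cannot be told apart either. The labelled tissue is skeletal, and of 13 cartilage marker genes 5 were kept and 4 of them were called lower in HOMO, where Col9a2 and Mia were not detected on any array. Of all kept named genes 50% were called lower. Of 12 neuron marker genes 8 were kept, 7 of them detected on all 4 WT arrays. No skeletal muscle marker could be assigned to a probe row.

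Adhesion and guidance genes were mostly seen in WT. Between 49 and 55 of the 96 genes were detected on each WT array (51.0% to 57.3%), and between 16 and 21 on each HOMO array (16.7% to 21.9%). Every HOMO array thus detected fewer members than any WT array, as was the case for all probes. Among the 52 kept members 13 were detected on all 8 arrays, and 29 on no HOMO array. Of the 44 members that were not kept, 33 were detected on no array and 11 on 1 or 2. Of the 37 assigned protocadherins 20 were not kept, and of the 7 assigned claudins 4 were not. Cdh11, a cadherin of mesenchyme, and Lama5, a laminin chain of most embryonic basement membranes, were detected on 2 WT arrays each and no HOMO array.

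**Figure D1:**
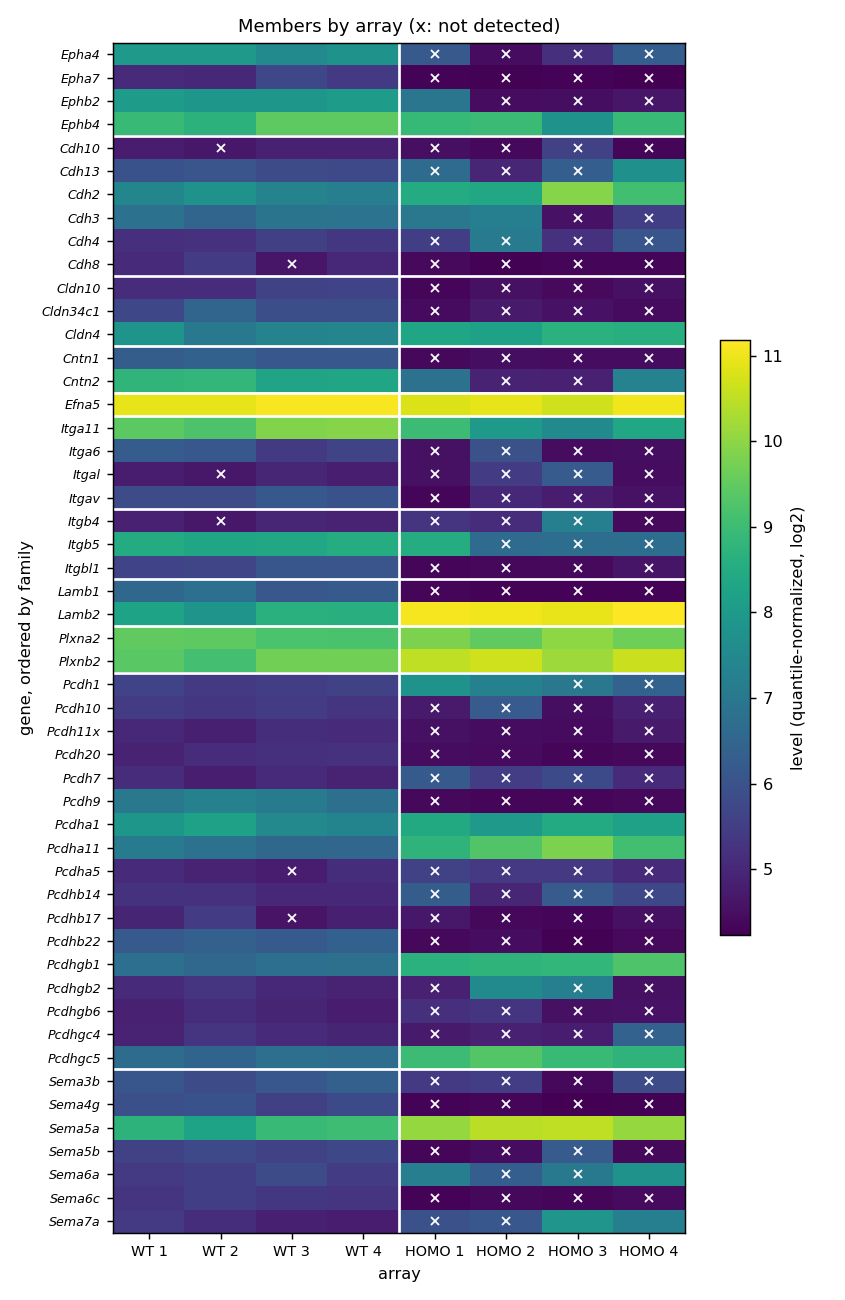
Quantile-normalized level (log2, colour) of 51 of the 52 kept members on the 4 WT and 4 HOMO arrays, with genes ordered by family, white lines between families and a white cross where a gene was not detected. Crosses fill most of the HOMO columns of the map, where 29 members have no detected value, while 45 members were detected on all 4 WT arrays.

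Levels in the following are log2 intensities after background correction and quantile normalization, all differences are HOMO minus WT, and calls rest on limma over all kept probes with a limit of 0.05 on the adjusted p. Of the 52 kept members 21 were called lower and 14 higher in HOMO, and 17 were not called. Among all kept named genes 50% were called lower and 22.2% higher, and the members' shares were 40.4% and 26.9%. Over all kept probes, named or not, the shares were 48.5% and 24.8%. The shares of the named genes are also the background for the family and marker counts. The WT and HOMO levels did not overlap for 32 members (61.5%), against 69.2% of the kept named genes. The median log2 difference was -0.23 over the members and -0.66 over the named genes. The number of calls in each direction changed with the scaling between arrays. The median difference over all kept probes was -0.56 after quantile normalization, -2.26 when array medians were set equal, -0.47 with median absolute deviation scaling and -1.83 in the authors' normalized values. With equal medians 48 members were called lower and 0 higher, where 92.1% and 2.54% of the named genes were. In the authors' values 30 members were called lower and 5 higher, where 78.5% and 9.96% of the named genes were. With median absolute deviation scaling the counts were 25 and 8, against 57.3% and 21.9% of the named genes.

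**Figure D2:**
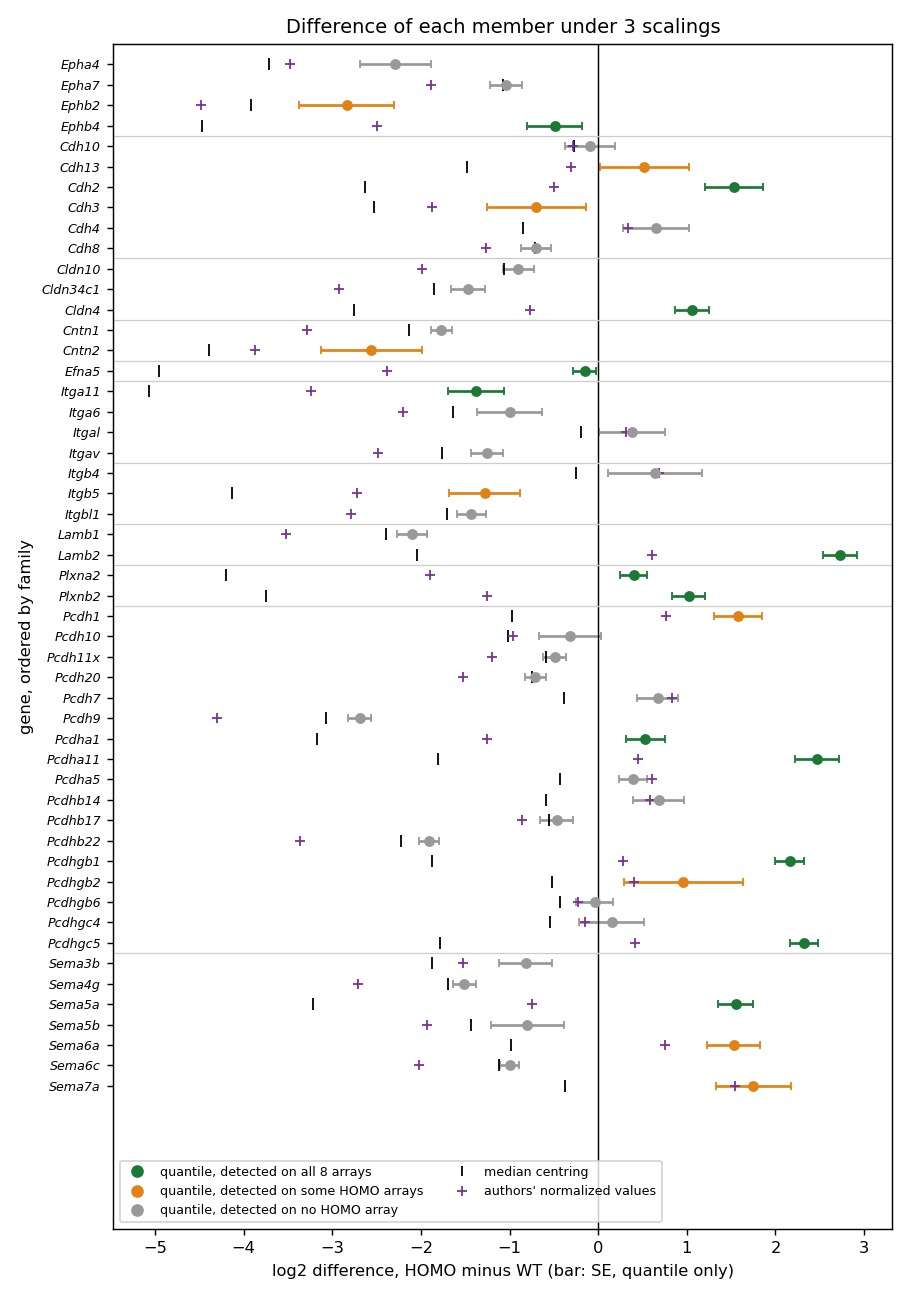
Log2 difference (HOMO minus WT) of 51 of the 52 kept members, as circles with the SE after quantile normalization, coloured by where the gene was detected, with the differences after median centring (bars) and in the authors' normalized values (crosses). Each member detected on all 8 arrays lies below 0 with median centring, and Cdh2, Cldn4, Pcdha1, Plxna2, Plxnb2 and Sema5a lie above 0 after quantile normalization and below 0 in the authors' values.

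Detection decided how much of a difference was measured. Of the 21 members called lower, 17 were not detected on any HOMO array. The lowest level of any detected probe averaged 4.76 on the WT arrays and 7.09 on the HOMO arrays, so that a WT level under 7.09 could go undetected in HOMO even if it were equal there. A fold bound, taken as the WT mean against this HOMO limit, could be given for Epha4 alone, and 16 of the members called lower have none. Among named genes detected on all 4 WT arrays and no HOMO array, 82.9% were called lower and 0.959% higher, and among the 23 such members 16 were called lower and 1 higher. That exception was Pcdh7, a protocadherin, whose fitted difference of 0.67 (adjusted p = 0.0269, and -0.39 with median centring) compared levels that were not measured in HOMO.

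The 13 members detected on all 8 arrays give the only comparisons measured on both sides in every sample. They were Ephb4, Efna5, Cdh2, Cldn4, Itga11, Lamb2, Plxna2, Plxnb2, Pcdha1, Pcdha11, Pcdhgb1, Pcdhgc5 and Sema5a. After quantile normalization 9 of the 13 were called higher (69.2%), 1 was called lower (7.69%) and 3 were not called, against 45.6% higher and 18.7% lower of the 1449 named genes detected on all 8 arrays. Detection on every HOMO array itself favours higher calls, because the mean detection limit was 7.09 in HOMO and 4.76 in WT. Genes with a WT level under 7.09, such as Pcdha11, Pcdhgb1 and Pcdhgc5, could enter only with a higher HOMO level. The 1449 genes passed the same filter. Levels did not overlap for 10 of them (76.9%), against 64.0% of those genes. Their median difference was 1.06, beside 0.31 for the 1449 genes. With median centring it was -3.17 beside -4.14, in the authors' values -0.77 beside -1.73, and with median absolute deviation scaling 0.67 beside 0.73. The members' median lay above that of the 1449 genes in all but the last. The scalings share the same intensities and the WT levels were not matched, so this is not separate support. Before any scaling, every one of the 13 was brighter in WT. Their WT to HOMO intensity ratio ran from 7.05 for Lamb2 to 102 for Itga11 with a median of 19.8, while the median over the 1449 genes was 36.2 and the 5th and 95th percentiles were 2.93 and 108.

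**Figure D3:**
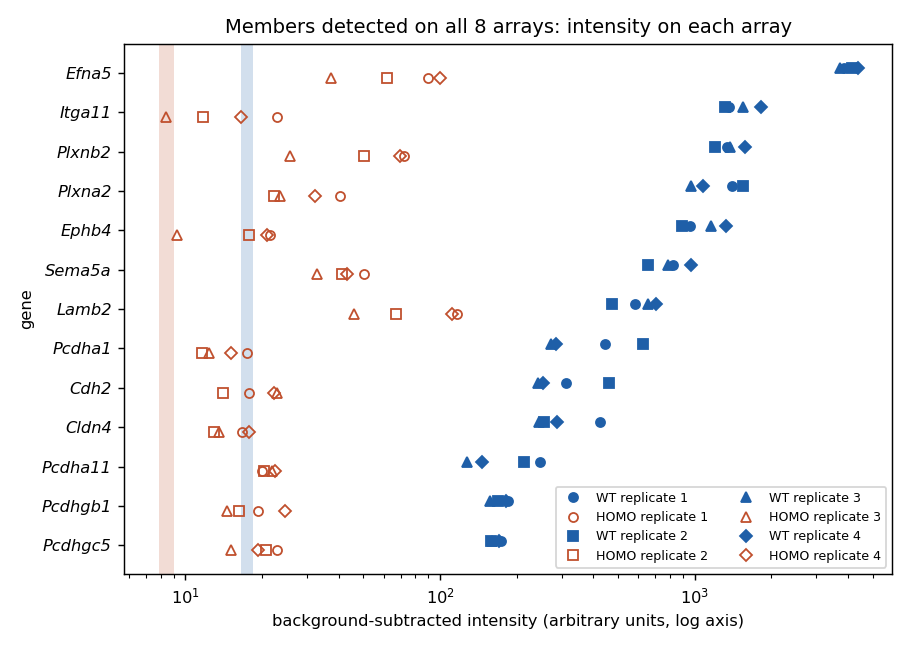
Background-subtracted intensity (log axis, arbitrary units) of the 13 members detected on all 8 arrays, with filled blue symbols for the WT and open orange symbols for the HOMO replicates. Shaded bands mark the lowest detected intensity of the HOMO arrays (7.9 to 9.0) and of the WT arrays (16.5 to 18.4), and the HOMO values of Cdh2, Cldn4 and the 4 protocadherins lie between 11.6 and 24.7 on every HOMO array.

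Laminins and integrins, the matrix side of adhesion, held the lowest and the highest of these ratios. Lamb2 encodes the beta2 chain, which is found at synapses and in kidney and vascular basement membranes. Its intensity in replicates 1 to 4, the order used throughout, was 582.5, 471.5, 652.6 and 701.9 on the WT arrays and 116.9, 67.3, 45.8 and 111.8 on the HOMO arrays. No HOMO value came near a WT value, yet the loss of signal was far smaller than the 41.7-fold loss of the array mean. The level of Lamb2 was 8.33 ± 0.37 in WT against 11.06 ± 0.10 in HOMO (SD, n = 4), called higher by 2.73 (SE 0.19, adjusted p = 4.04e-06), and called lower with median centring (-2.04, adjusted p = 1.02e-05) and not called in the authors' values (0.61, adjusted p = 0.105). Measured from the median shift of all probes, Lamb2 stood at 3.29 with quantile normalization, 0.22 with median centring, 4.03 with median absolute deviation scaling and 2.45 in the authors' values. Only 8.63% of the named genes detected on all 8 arrays had a smaller intensity ratio.

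Itga11, the alpha subunit of a collagen-binding integrin of mesenchymal cells, stood at the other end. Its intensity was 1366.8, 1319.0, 1539.8 and 1822.8 on the WT arrays and 22.9, 11.7, 8.4 and 16.5 on the HOMO arrays. The HOMO replicate 3 value lay next to the lowest intensity detected on that array, 8.2. Itga11 fell from a level of 9.61 ± 0.33 to 8.23 ± 0.62 (SD, n = 4), a difference of -1.38 (SE 0.32, adjusted p = 0.00409), and it was also lower with median centring (-5.07), median absolute deviation scaling (-1.07) and in the authors' values (-3.24). It stayed below the median shift of all probes under all 4 scalings, at -0.82, -2.81, -0.60 and -1.41 in the order given for Lamb2.

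Lamb1, the beta1 chain of the common embryonic laminin, had intensities of 153.1, 204.1, 88.6 and 108.0 in WT and was not detected on any HOMO array. It was called lower (fitted difference -2.10, adjusted p = 7.23e-06), but its WT level of 6.41 lay under the HOMO detection limit, so the size was not measured.

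Integrin beta genes were represented by Itgb5, Itgb4 and Itgbl1. Itgb5, whose product pairs with the alpha v subunit to bind vitronectin, had intensities of 700.3, 683.2, 543.4 and 671.9 in WT and 18, 6.7, 6.0 and 7.5 in HOMO, and it was detected on HOMO replicate 1 alone. There its level (8.52) matched the highest WT level (8.52), so the groups overlapped. Itgb5 was called lower by the fit (-1.28, SE 0.40, adjusted p = 0.0193) and lower under each of the other scalings too, but with 3 HOMO arrays undetected the size was not measured. Itgav, the alpha v subunit, was steady in WT at 78.2 to 90.3 and undetected in HOMO (called lower, adjusted p = 2.45e-04, no fold bound). Itga6, a laminin receptor subunit, ranged from 42.8 to 119.1 in WT and was undetected in HOMO. Its call (adjusted p = 0.0362) was lost without WT replicate 1 (-0.79), 2 (-0.82) or 4 (-0.99) and without HOMO replicate 1 (-0.95), 3 (-0.93) or 4 (-0.93). Itgbl1 and Itgb1bp1 match the symbol pattern but encode an integrin-like secreted protein and an integrin-binding protein. Itgbl1 was called lower (adjusted p = 5.39e-05, undetected in HOMO, no fold bound), and Itgb1bp1 was detected on no array. Itgal and Itgb4, dim on 3 WT arrays and absent from the HOMO arrays, were not called.

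Cadherins gave 1 lower and 1 higher call among 6 kept genes. The higher call was Cdh2, N-cadherin, which neurons, somites and condensing mesenchyme share. Its brightest probe read 310.9, 458.6, 242.8 and 253.1 on the WT arrays and 17.8, 14, 23.0 and 22.3 on the HOMO arrays. The HOMO value was highest on replicate 3, the dimmest array. The level was 7.44 ± 0.25 in WT and 8.97 ± 0.70 in HOMO (SD, n = 4), called higher by 1.53 (SE 0.33, adjusted p = 0.00318), and it was lower with median centring (-2.63) and in the authors' values (-0.50, adjusted p = 0.0884). The other Cdh2 probe gave the opposite direction, as described with the probe pairs. Cdh3, P-cadherin, was detected on all 4 WT arrays at 162.6 to 193.0 and on 2 HOMO arrays. Its difference of -0.70 (SE 0.56, adjusted p = 0.286) was -0.20 without HOMO replicate 3 and -1.13 without HOMO replicate 2. It was called lower with median centring (-2.53), with median absolute deviation scaling (-0.77) and in the authors' values (-1.88). Cdh4, R-cadherin, was not detected in HOMO and was not called (fitted difference 0.65, adjusted p = 0.147), although it passed without HOMO replicate 3 (0.93, adjusted p = 0.0435) and its difference had the other sign with median centring (-0.85). Cdh8, a neuronal cadherin, was called lower (adjusted p = 0.00610) from 3 WT arrays at 29.3 to 55.1 and none in HOMO. Cdh10 and Cdh13 were not called.

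Protocadherins formed the largest family, with 17 kept genes of which 4 were called lower, 5 higher and 8 not at all. Among all kept named genes the shares were 50% lower and 22.2% higher. Most of them are neuronal, and the clustered alpha and gamma genes encode isoforms that share constant exons. The places of the probes within these genes are not given in the files, so signal of an alpha or gamma isoform may belong to several members of its cluster. Pcdha11 read 247.3, 214.0, 127.4 and 145.9 on the WT arrays and 20.0, 20.3, 21.8 and 22.4 on the HOMO arrays. Pcdhgb1 read 185.6, 168.6, 156.4 and 181.4 against 19.3, 16.2, 14.6 and 24.7. Pcdhgc5 read 172.8, 158.1, 160.2 and 170.8 against 22.8, 20.7, 15.1 and 19.2. Each of the 3 was detected on every array, with every WT intensity above every HOMO one, and their WT to HOMO ratios were 8.69, 9.25 and 8.51. They were called higher by 2.47, 2.16 and 2.32, respectively (adjusted p of 3.14e-05, 4.65e-06 and 2.85e-06), and lower with median centring by -1.81, -1.88 and -1.79, and they were not called in the authors' values (0.45, 0.28 and 0.41). Their mean WT levels (6.76, 6.72 and 6.67) lay under the HOMO detection limit of 7.09. Detection on every HOMO array therefore fixed the direction of the quantile-normalized difference in advance. Set against the median probe, each of the 3 stood higher under every scaling, by 0.38 or more. The scalings all start from the same intensities, and the 3 genes were selected by detection in HOMO, so this is not separate support. Pcdha1 read 444.8, 623.9, 271.8 and 284.2 in WT and 17.5, 11.6, 12.4 and 15.1 in HOMO. It was not called (0.53, SE 0.22, adjusted p = 0.0553), passed without WT replicate 2 (0.68) or HOMO replicate 2 (0.65), and was lower with median centring (-3.17), with median absolute deviation scaling (-0.27) and in the authors' values (-1.26).

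Among the non-clustered and beta protocadherins, Pcdh9, a protocadherin of the developing nervous system, read 223.0, 307.5, 204.3 and 182.4 on the WT arrays and was at or below background on every HOMO array. It had the smallest adjusted p of all members (fitted difference -2.69, adjusted p = 6.65e-07). The HOMO levels were background values with an SD of 0.03, so this p does not measure the size of a change. Pcdh9 also lay below the median shift under each scaling. The scalings start from the same intensities, so this is not separate support. Its WT level of 7.05 lay just under the HOMO detection limit of 7.09 and no fold is given. Pcdhb22, of the beta cluster, read 95.3 to 140.3 in WT and was not detected in HOMO (called lower, adjusted p = 1.47e-06). Pcdh11x and Pcdh20 were also called lower from dim WT signal without HOMO detection. Pcdh1, detected on 2 HOMO arrays at 13.4 and 8.7 against 46.2 to 65.9 in WT, was called higher (1.58, adjusted p = 7.81e-04) and was lower with median centring (-0.97). Its WT level of 5.54 lay under the HOMO detection limit, so the size was not measured.

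Claudins were few. Cldn4, a tight-junction protein of simple epithelia, read 423.7, 255.3, 244.0 and 287.2 on the WT arrays and 16.7, 13, 13.6 and 17.7 on the HOMO arrays. WT replicate 1 stood above the other WT arrays, and the HOMO arrays were close together. Cldn4 was called higher by 1.06 (SE 0.19, adjusted p = 0.00126) after quantile normalization, and lower with median centring (-2.76) and in the authors' values (-0.77, adjusted p = 0.00742). The keratins Krt8 and Krt18 of simple epithelia were also brightest on WT replicate 1, at 334.8 and 283.2, against 149.1 to 183.5 and 115.6 to 142.4 on the other WT arrays. In HOMO, Krt8 was not detected and Krt18 was detected on 3 arrays at 17.9, 10.1 and 10.4. Of the 6 epithelial marker genes 3 were kept, Cldn4 being among them, with a summed intensity of 509 to 1040 in WT and 20.4 to 34.6 in HOMO. Epcam and Cdh1 could not be assigned, and the part of epithelial cells in the Cldn4 values was not tested. Cldn10 and Cldn34c1 were detected on all WT arrays, at 34.9 to 63.3 and 70.3 to 162.6, and on no HOMO array, and both were called lower without a fold bound (adjusted p = 0.00139 and 1.36e-04).

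Both kept contactins were called lower, as were 50% of all kept named genes. Cntn2, an adhesion molecule of commissural and motor axons, read 838.0, 969.6, 503.5 and 578.0 in WT and 9.1, 2.1, 1.6 and 9.8 in HOMO, where only replicates 1 and 4 were above the detection threshold. It was called lower (fitted difference -2.56, SE 0.57, adjusted p = 0.00363), in the same direction under each scaling, but the size was not measured, since 2 HOMO arrays did not detect it. Cntn1, a contactin of axons, read 121.5, 144.6, 89.1 and 101.2 in WT and was not detected in HOMO (called lower, adjusted p = 2.67e-06, no fold bound). In neuron markers kept on the arrays, 6 of 8 were called lower and 1 higher, against 50% and 22.2% of all kept named genes. Their summed intensity was 3920 to 13000 in WT and 49.6 to 64.8 in HOMO, and the part of neurons in the contactin values was not tested.

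Of the ephrins and Eph receptors, 1 ephrin and 4 receptors were kept. Efna5, an ephrin ligand of EphA receptors in axon guidance, read 3847.3, 4159.7, 3726.0 and 4353.6 in WT and 89.9, 62.1, 37.4 and 100 in HOMO. Its WT to HOMO ratio of 55.6 was above the 41.7 of the array mean, and 72.2% of the named genes detected on all 8 arrays had a lower ratio. Its level of 11.01 ± 0.12 in WT and 10.86 ± 0.16 in HOMO (SD, n = 4) was not called different (-0.15, SE 0.13, adjusted p = 0.338). With median absolute deviation scaling the sign turned (1.96), and with median centring (-4.96) and in the authors' values (-2.38) it was called lower. Among the receptors, Ephb4, known from veins and from osteoblasts, read 959.7, 894.5, 1152.6 and 1322.6 in WT and 21.4, 17.8, 9.3 and 20.9 in HOMO. HOMO replicate 3 was the low one. The difference of -0.49 (SE 0.31, adjusted p = 0.183) was -0.21 without HOMO replicate 3 (adjusted p = 0.413). Ephb4 was called lower with median centring (-4.47) and in the authors' values (-2.50), and not with median absolute deviation scaling (-0.58).

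Epha1 was detected on no array, and the remaining 3 receptors were called lower after quantile normalization. Epha4, a receptor through which ephrins repel axons, read 477.6, 535.8, 281.4 and 385.9 in WT and 6.7, -1.2, 2.6 and 6.1 in HOMO, undetected on each HOMO array. It was at least 1.66-fold lower in HOMO on the quantile-normalized scale (adjusted p = 8.51e-04). Ephb2, a receptor for B-class ephrins, read 500, 499.1, 376.9 and 472.6 in WT and was detected on HOMO replicate 1 alone, at 9.5. It was called lower (fitted difference -2.84, SE 0.54, adjusted p = 0.00142, and -3.59 without that array), but as 3 HOMO arrays lay at background the size was not measured. Epha4 and Ephb2 also lay below the median shift of all probes under every scaling, Epha4 by -1.73, -1.46, -0.92 and -1.64 with quantile normalization, median centring, median absolute deviation scaling and in the authors' values. The scalings start from the same intensities, and most HOMO values of both genes were background, so this is not separate support. Epha7 was dim in WT (32.5 to 60.9), undetected in HOMO, and called lower without a fold bound (adjusted p = 7.84e-04). Against the median shift it stood at -0.48 with quantile normalization and at 1.18 with median centring.

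Semaphorins are the cues and plexins their receptors. Of 7 kept semaphorins 3 were called lower, 3 higher and 1 not at all, and both kept plexins were called higher on the quantile-normalized scale and lower with median centring. The shares over all kept named genes were 50% lower and 22.2% higher after quantile normalization. Sema5a, a semaphorin whose thrombospondin repeats bind proteoglycans, read 817.8, 652.3, 782.1 and 969.0 in WT and 50.2, 41.3, 33.0 and 43.2 in HOMO. It was called higher by 1.55 (SE 0.20, adjusted p = 1.50e-04), and lower with median centring (-3.22) and in the authors' values (-0.75, adjusted p = 0.00800). Sema3b, a secreted repellent, and Sema4g, a transmembrane semaphorin, were undetected in HOMO and were called lower without a fold bound (adjusted p = 0.0358 and 1.32e-05). The Sema3b call was lost without WT replicate 1 (-0.76), 3 (-0.78) or 4 (-0.69) or HOMO replicate 1 (-0.91), and it was -0.54 without HOMO replicate 3. Sema6a and Sema7a, each detected on 2 HOMO arrays, were called higher (1.53 and 1.75), and lower in sign with median centring (-0.98 and -0.38). Their WT levels (5.56 and 5.05) lay under the HOMO detection limit of 7.09, so the sizes were not measured. Sema6c was called lower from WT values of 39.6 to 61.7.

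Plxnb2, a receptor for class 4 semaphorins in progenitor cells, read 1334.8, 1204.5, 1373.4 and 1577.7 in WT and 71.9, 50.3, 25.7 and 69.4 in HOMO. Its level rose from 9.48 ± 0.28 to 10.50 ± 0.24 (SD, n = 4), a difference of 1.02 (SE 0.19, adjusted p = 0.00124) that turned to -3.75 when medians were set equal and to -1.25 in the authors' values. Plxna2, a receptor for class 3 and class 6 semaphorins, read 1400.4, 1551.9, 963.6 and 1075.7 in WT and 40.3, 22.2, 23.6 and 32.4 in HOMO. Its higher call was small (0.40, SE 0.15, adjusted p = 0.0445), turned to lower with median centring (-4.20) and in the authors' values (-1.90), and was lost without WT replicate 3 (0.35) or 4 (0.35) or HOMO replicate 1 (0.38), 3 (0.31) or 4 (0.43).

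Among the 13 members measured on every array, the HOMO intensities did not all follow the brightness of the HOMO arrays. HOMO replicate 1 was the brightest array of its group and replicate 3 the dimmest, with mean intensities of 10.51 and 5.211, a ratio of 2.02. The median ratio over the 1449 named genes detected on all 8 arrays was 1.93. Ephb4 (2.30), Efna5 (2.40), Lamb2 (2.55), Itga11 (2.73) and Plxnb2 (2.80) had ratios above it. Plxna2 (1.71), Sema5a (1.52), Pcdhgc5 (1.51), Pcdha1 (1.41), Pcdhgb1 (1.32) and Cldn4 (1.23) had lower ones, and Pcdha11 (0.917) and Cdh2 (0.774) were brighter on the dimmer array. The ratio uses these 2 arrays alone. Marker genes of other cells also differed on HOMO replicate 3. The mean level of 4 erythroid genes was 7.41 there and 10.17 to 10.61 on the other HOMO arrays, though Hbb-b1 (7.49) was not lower there. That of 6 tendon and connective tissue genes was 7.47 against 9.11 to 9.52. This mean includes background values of Dcn (4.53), Col1a2 (4.73) and Col3a1 (4.52), the last undetected on every HOMO array. Col1a1 (9.10) and Col5a1 (11.68) were also lowest on replicate 3, and Scx (10.28) was not. The part of these cells in the member values was not tested.

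Within the WT group the members varied as other genes did. Over the 45 members detected on all 4 WT arrays the median SD of the level was 0.18, beside 0.17 for 4508 named genes. Of the 45, 10, 15, 11 and 9 were highest on WT replicates 1 to 4, or 22.2%, 33.3%, 24.4% and 20.0%, against 21.1%, 33.3%, 24.5% and 21.2% of the named genes. Pcdha1 had the widest range, with levels of 7.90, 8.20, 7.49 and 7.36. Itga6 (6.25, 6.11, 5.42 and 5.66), Lamb1 (6.54, 6.78, 6.12 and 6.19) and Cntn2 (8.77, 8.82, 8.29 and 8.31) were likewise higher on WT replicates 1 and 2. The mean level of 8 neuron markers was also higher on these arrays, at 8.27, 8.68, 7.50 and 7.51. Itga11 (9.44, 9.24, 9.86 and 9.91), Ephb4 (8.94, 8.70, 9.46 and 9.45), Lamb2 (8.26, 7.83, 8.65 and 8.58), Plxnb2 (9.40, 9.11, 9.70 and 9.70) and Sema5a (8.73, 8.27, 8.90 and 9.03) were instead higher on WT replicates 3 and 4, as was the mean of 5 cartilage markers, at 9.28, 9.32, 9.69 and 9.80. With 4 arrays no correlation is given, and the part of neurons or cartilage cells in these levels was not tested.

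**Figure D4:**
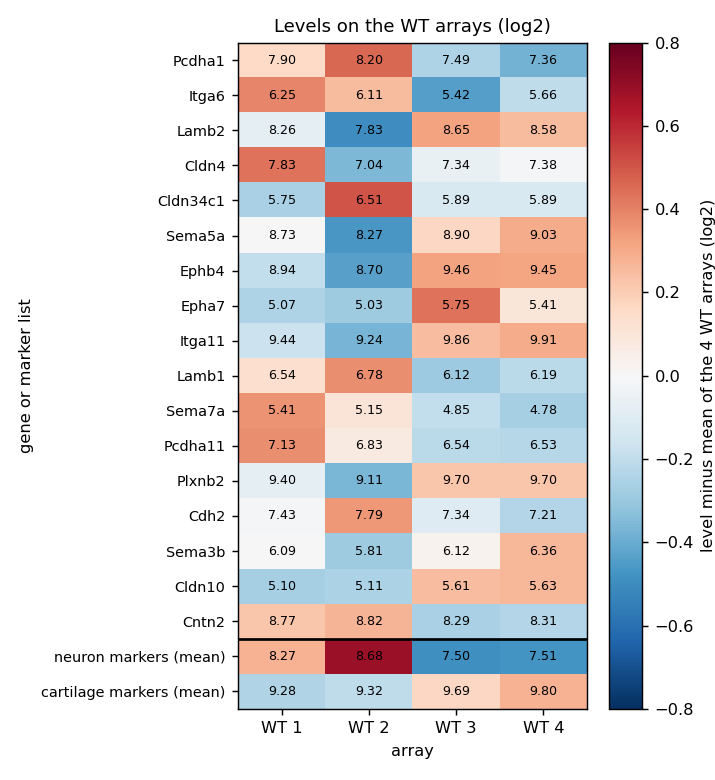
Levels (log2, printed) of the 17 members with the widest range over the 4 WT arrays, with the mean levels of the neuron and cartilage marker lists below the line, coloured by the distance from the mean of the 4 arrays. Pcdha1, Itga6, Lamb1 and Cntn2 are red on WT replicates 1 and 2 together with the neuron markers, and Itga11, Ephb4, Plxnb2 and Sema5a on WT replicates 3 and 4 together with the cartilage markers.

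Different probes of a gene did not always give the same answer. Of the 96 assigned members 12 had several probe rows, and 7 genes had 2 kept probes. For Cdh2 the other probe read 257.4, 414.8, 127.2 and 213.0 on the WT arrays and -6.1, -0.4, 1.8 and -0.9 on the HOMO arrays, undetected on each. It was called lower (fitted difference -2.54, adjusted p = 2.57e-05), whereas the brightest Cdh2 probe kept 14 to 23.0 on the same HOMO arrays and was called higher by 1.53. The 2 Cdh2 probes followed each other in WT, both highest on replicate 2. For Pcdhgc5 both probes were detected on all 8 arrays and both were called higher (2.32 and 3.63), the other probe reading 58.5, 47.7, 20.3 and 19.9 in WT and 15.5, 20.6, 13.4 and 20.9 in HOMO, where the intensities of the groups overlapped. The WT levels of both probes (6.67 and 5.14) lay under the HOMO detection limit of 7.09, so their shared direction was fixed by detection in HOMO. The other Pcdhgb1 probe was detected on no WT array and was not kept. The other Efna5 probe read 33.3 to 58.7 in WT and was called lower (-0.94, adjusted p = 6.32e-04, undetected in HOMO) where the bright one was not called. For Cntn2 (-2.56 and -0.48) and Ephb2 (-2.84 and -1.12) both probes were called lower. Pcdh10 and Pcdh11x had a call from 1 of their 2 probes.

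**Figure D5:**
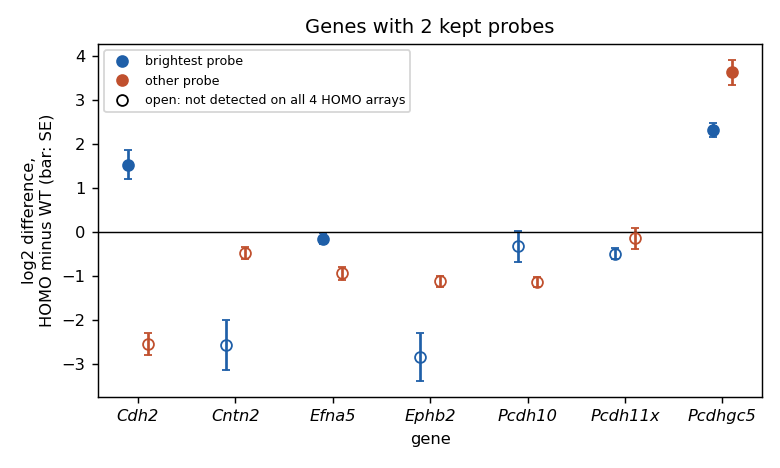
Log2 difference (HOMO minus WT, bars SE, quantile-normalized) of both kept probes of the 7 members that have 2, with the brightest probe in blue, the other in orange, and open symbols for probes not detected on all 4 HOMO arrays. The Cdh2 probes lie at 1.53 and -2.54, on opposite sides of 0, and both Pcdhgc5 probes lie above 0, where the brightest lies at -1.79 with median centring.

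Genes that work with the members were read from 4 lists. Of 12 kept junction and integrin partners 8 were called lower and none higher, with a median difference of -1.02 against -0.66 over all named genes. Ilk, integrin-linked kinase, which joins integrin tails to actin, read 238.4 to 351.2 in WT, was undetected in HOMO and was at least 1.19-fold lower (adjusted p = 1.27e-06). Ctnna1, alpha-catenin, which ties cadherins to actin, was detected on all 8 arrays and fell by 0.52 on the log2 scale (SE 0.13, adjusted p = 0.00710), with the opposite sign under median absolute deviation scaling (1.97). Its fall was near the median shift of all probes after quantile normalization (-0.56), from which it stood at 0.05. Of 10 kept matrix ligands 4 were called lower and 1 higher (median -0.58), among them Dag1, dystroglycan, a laminin receptor, called lower (adjusted p = 0.00904) with 2 HOMO arrays detected and so of unmeasured size. Of 16 kept guidance genes outside the families 5 were called lower and 7 higher (median 0.40). The higher calls include Nrp2 and Robo2, whose WT levels (4.97 and 5.37) lay under the HOMO detection limit of 7.09. Neither was detected on all HOMO arrays, so those sizes were not measured. Nrp1, the co-receptor that plexins use for class 3 semaphorins, read 1279.7 to 2232.9 in WT and 43.4 to 100.3 in HOMO and was called higher by 1.17 (SE 0.14, adjusted p = 9.75e-05), and lower with median centring (-3.63) and in the authors' values (-1.02). Slit2, a secreted repellent of Robo receptors, was called lower (adjusted p = 1.44e-04) with 1 HOMO array detected, so the size was not measured. Robo1 fell by 0.70 (adjusted p = 0.00650), which is -0.14 from the median shift, and turned to 0.43 with median absolute deviation scaling. Of 12 kept adhesion receptors of other families 8 were called lower and none higher (median -1.62). Vcam1, a ligand of leukocyte integrins, was detected on all 8 arrays and fell by 1.21 (SE 0.32, adjusted p = 0.00854), a call that was lost with median absolute deviation scaling (-0.31, adjusted p = 0.519). The shares lower and higher in all kept named genes, 50% and 22.2%, are the background for each of these lists.

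Promoters were searched for the core letters that SOX proteins bind, since the compared cells differ in Sox9. The cores AACAAT and ACAAAG were sought on both strands from 250 bases before to 50 after each start, in RefSeq promoters of GRCm38.p6. Of 36 promoters of 29 kept members 4 held either core (11.1%), against 27.0% of 32851 promoters of all genes. The matches before a start are shown to place them beside the values above, with the core in capitals, which in each of them reads on the strand opposite to the gene. A match describes letters and is not evidence of binding.
Cldn10, chr14:118787785-118787814, plus strand: gtataatctgtaCTTTGTaatatttgatca
Cldn4, chr5:134947040-134947069, minus strand: gcctctgaacgcCTTTGTtggcccaagctc
Cntn1, chr15:92127978-92128007, plus strand: tttagtctctacATTGTTttattaatgtac
Cntn1, chr15:92128092-92128121, plus strand: tttagtctctatATTGTTttattaatgtac
The cores began 74 bases before the start of Cldn10, 123 before that of Cldn4, and 138 and 24 before that of Cntn1, whose pair of near-identical stretches lies in a single promoter window. The remaining match, in Plxnb2, lay after the start. Cldn10 and Cntn1 were undetected in HOMO, and Cldn4 and Plxnb2 were detected on every array, so the 4 genes with a core fell into both detection classes.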

How the data were processed

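Members, gene lists and marker lists were chosen with earlier results of these data known. The authors scanned the arrays with GenomeStudio and deposited intensities with background subtracted, some of them negative, each with a detection score between 0 and 1 that was read as 1 minus a detection p. They also deposited normalized log2 values, which equal the log2 of intensities raised to at least 1, minus the median of their array and a constant per probe (largest departure 1.5e-06). Scale, centring and direction of that table are therefore known. The labels name the WG6 v1.1 array and the study's methods another version. No genome build was given for the array in the sources used here, so no coordinates are printed for probes or genes, and those of promoter stretches come from RefSeq's table.

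Genes were named from RefSeq through NCBI identifiers, taken from zero-padded numbers within the probe names (9796 of 16160 matched, 60.6%). Names were joined to intensities through identical rows of 8 normalized values, and a gene was represented by its brightest probe by mean intensity. Normexp background correction used the detection values. An offset of 16 was added before quantile normalization and log2 (limma 3.58.1, R 4.3.3). Probes with a detection value above 0.95 on at least 3 of 8 arrays were kept and 9 control probes left out. WT and HOMO were compared with limma (lmFit, eBayes, two-sided), adjusting by Benjamini-Hochberg over all kept probes. The number of arrays limits the precision. The procedure was tested on simulated data. Named genes were, per family, the 2 with the highest WT level, the 2 highest of those detected in a single group, and every member detected on all 8 arrays, 31 in all, and other members are named after their values were seen. A fold bound sets the WT mean level against the mean, over the HOMO arrays, of the lowest level of any detected probe or the gene's own level if higher. Partner and marker genes outside the families follow the fixed lists. Alternatives covered scaling, background, offset, detection filter, probe choice, test, replicate numbers as a block, and each array left out. The values of 1 kept member are not reported here. Promoters were read from RefSeq's GRCm38.p6 table.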

Additional observations from a re-analysis of the deposited data

Results flagged for a closer look

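Of 44 groups of 4 arrays examined among the members named by the rule, 2 held an array far from the other 3, where chance alone gives about 1 group in 20. The level of Ephb4 on HOMO replicate 3 was 7.79, against 8.88 to 8.98 on the other HOMO arrays, a gap of 0.913 of the whole range (Dixon's test at the 95% level). Its difference is -0.49 with that array and -0.21 without it. The level of Pcdhgb1 on WT replicate 2 was 6.55, against 6.77 to 6.80 on the other WT arrays, a gap of 0.906 of the range, which is small beside the difference of 2.16 between the groups.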

How the results depend on the processing

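Setting array medians equal called 48 members lower and 0 higher (all probes 18435 and 820), median absolute deviation scaling called 8 members higher, and the authors' values 5 (all probes higher 3285). Without a detection filter 8526 probes were higher. Restricted to probes detected on all 8 arrays, which leaves fewer genes, 1 member and 788 probes were lower and 2897 probes higher. Leaving out each array gave 19 to 22 members lower, 12 to 17 higher, 9424 to 10403 probes lower and 4866 to 5395 higher. The sign turned with median centring for Cdh2 (-2.63), Cdh4 (-0.85), Cldn4 (-2.76), Lamb2 (-2.04), Pcdha1 (-3.17), Pcdha11 (-1.81), Pcdhgb1 (-1.88), Pcdhgc5 (-1.79), Plxna2 (-4.20), Plxnb2 (-3.75) and Sema5a (-3.22), in the authors' values for Cdh2 (-0.50), Cldn4 (-0.77), Pcdha1 (-1.26), Plxna2 (-1.90), Plxnb2 (-1.25) and Sema5a (-0.75), with median absolute deviation scaling for Cdh4 (-0.09), Efna5 (1.96) and Pcdha1 (-0.27), and for Cdh2 when its probes were averaged by their median (-0.50). The cause was not tested beyond the shift of the median probe that each scaling gives.

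Samples with the same replicate number deviated together hardly at all (correlations of -0.033 to 0.028 over probes). Many HOMO values are background, so these correlations cannot decide whether the samples were paired. With the replicate number as a block, 21 members were called lower and 13 higher, and 9773 probes lower and 5036 higher. Plxna2 alone of the named members lost its call (0.40, adjusted p = 0.104). At a detection p below 0.01, 17 members were called lower and 11 higher, and with the methods' analysis of variance 19 and 15. An order of WT levels between genes was planned and not run, because levels of different probes are not comparable. Signal over background limits the HOMO arrays, where 29 kept members have no measured level.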
